A study of Mus musculus with 4 samples.

Results

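The solute carriers described here move organic cations, organic anions, carnitine, monocarboxylates, phosphate, glutamate and nucleosides across membranes. Their members were chosen by name, as every gene of the families Slc16, Slc17, Slc22, Slc28, Slc29 and Slc47 in the deposited table, which gave 58 of 24421 genes. RNA was measured in 4 mouse liver samples, 2 labelled gelADSC and 2 labelled control. The gelADSC mice had a hepatectomy and received adipose-derived stem cells (ADSC) embedded in fibrin gel, and the control mice had a hepatectomy and received fibrin gel. All 4 samples thus share the surgery and the gel, and no unoperated liver was analysed here. The strain, age, time after surgery, extent of resection and source of the ADSC are not stated. Whether the libraries within each group stem from different mice is also not stated, so p-values measure only the spread between these libraries, which may be technical.

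In the liver, organic cation and anion carriers of the Slc22 family sit mostly on the blood side of the hepatocyte, where they take up drugs, vitamins and metabolites. Slc47 proteins release cations from the cell in exchange for protons. Slc16 proteins carry lactate, pyruvate and ketone bodies, and some of them carry thyroid hormone or aromatic amino acids. Slc28 proteins concentrate nucleosides with the help of sodium, and Slc29 proteins let them equilibrate. Slc17 proteins include phosphate and urate carriers and the carriers that load glutamate or ATP into vesicles.

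In gelADSC livers the test called higher several organic anion carriers, the amino acid and thyroid hormone carrier Slc16a10, the cation exporter Slc47a1, the nucleoside carrier Slc29a1 and the Slc17 carriers Slc17a2 and Slc17a8. It called lower the carnitine carrier Slc22a5, the cation carrier Slc22a3 and the carriers Slc16a7, Slc16a6 and Slc17a4. Values are FPKM (fragments per kilobase of transcript, scaled to the mapped fragments of a library). Of the 58 members, 27 averaged 1 FPKM or more across the 4 libraries and were tested with limma, 25 were detected at lower values and 6 were listed at 0 in every library. At a limma adjusted p under 0.05, 10 tested members were higher in gelADSC and 5 were lower, where 6.92% of all tested genes were higher and 17.5% lower, 24.4% in all. Log2 changes compare the group means of log2(FPKM + 1), with positive values for higher levels in gelADSC, and understate the change of low genes. Their median was 0.21 over the tested members and -0.25 over all 11070 tested genes. Without control library 1 the counts were 5 higher and 2 lower, and without control library 3 they were 8 higher and 2 lower. Median ratio scaling, which removes that common shift, and quantile normalization each gave 10 members higher and 2 lower. In both, Slc22a18 took the place of Slc17a8 among the higher members. Of the tested members, 4 passed the filter through the values of 1 group alone (Slc17a8, Slc22a2, Slc22a28 and Slc22a3), so the counts over tested members are descriptions.

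In 14 tested members both gelADSC libraries read above both control libraries, in 7 they read below, and in 6 the groups overlapped. Of all tested genes, 19.2% lay above and 50.5% below in this way, 69.8% in all. In all 15 called members the log2 change was larger than the difference between the libraries of either group, as it was in 5 of the 12 that were not called. The test itself weighs the change against such differences, so the count over called members follows largely from the call and adds no support. Because these are whole pieces of liver, more cells of a type and more RNA per cell cannot be told apart.

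The libraries held roughly 18100000 to 24400000 reads, as read from the smallest steps between values, so 1 read in a 2 kb gene was worth 0.0205 to 0.0276 FPKM. Hepatocyte genes were abundant throughout, with 22023 and 38330 FPKM of Alb in gelADSC libraries 2 and 3 and 28129 and 31907 FPKM in control libraries 1 and 3. The summed level of 7 hepatocyte markers in the table was 45428 to 67019 FPKM in gelADSC and 50721 to 59381 FPKM in control libraries, with 1 of 7 called higher. Beside this and the marker counts that follow, 6.92% of all tested genes were called higher and 17.5% lower. Markers of bile duct cells summed to 49.5 to 57.7 FPKM in gelADSC and 169.9 to 311 FPKM in control libraries. Of 5 tested, Spp1 and Sox9 were called lower in gelADSC, and Krt19, Krt7 and Epcam were not called. Most of the sum was Spp1, with 52.1 and 43.5 FPKM in gelADSC and 149.6 and 297.8 FPKM in control libraries. Kupffer cell markers summed to 192 to 321 FPKM in gelADSC and 239.7 to 295 FPKM in control libraries, with 0 of 8 called by limma and 3 of 8 at an unadjusted p under 0.05. Sinusoidal endothelial markers summed to 118 to 132 FPKM in gelADSC and 113 to 124 FPKM in control libraries, with 2 of 8 higher and 1 lower. Stellate cell and fibroblast markers summed to 107 to 130.4 FPKM in gelADSC and 72.5 to 152 FPKM in control libraries, with 3 of 8 higher. Neutrophil and monocyte markers summed to 26.4 to 78.5 FPKM in gelADSC and 72.1 to 76.5 FPKM in control libraries, with 1 of 6 tested lower. Erythroid markers summed to 38.9 to 40.1 FPKM in gelADSC and 9.99 to 10.95 FPKM in control libraries, with 4 of 7 at 0 in every library and Alas2, the single tested marker, higher. Lymphocyte markers summed to 1.78 and 3.26 FPKM in gelADSC and 0.221 and 0.236 FPKM in control libraries. All 7 of them in the table read higher in both gelADSC libraries than in both controls, each under the filter, and Cd3g and Cd8a were listed at 0 in both controls. Adipocyte markers summed to 4.23 to 7.03 FPKM in gelADSC and 5.07 to 11.8 FPKM in control libraries, and 0 of 2 tested were called or had an unadjusted p under 0.05 in limma. The proliferation gene Mki67 read 1.55 and 12.5 FPKM in gelADSC and 0.0946 and 0.143 FPKM in control libraries, so the gelADSC libraries differed from each other. The part of any of these cell types or of proliferation in the values below was not tested. The Y-linked Ddx3y read 13.2 and 13.5 FPKM in gelADSC and 14.1 and 13.97 FPKM in control libraries, and Xist was at most 0.00560 FPKM, so a Y-linked transcript was present in all 4 libraries.

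**Figure D1:**
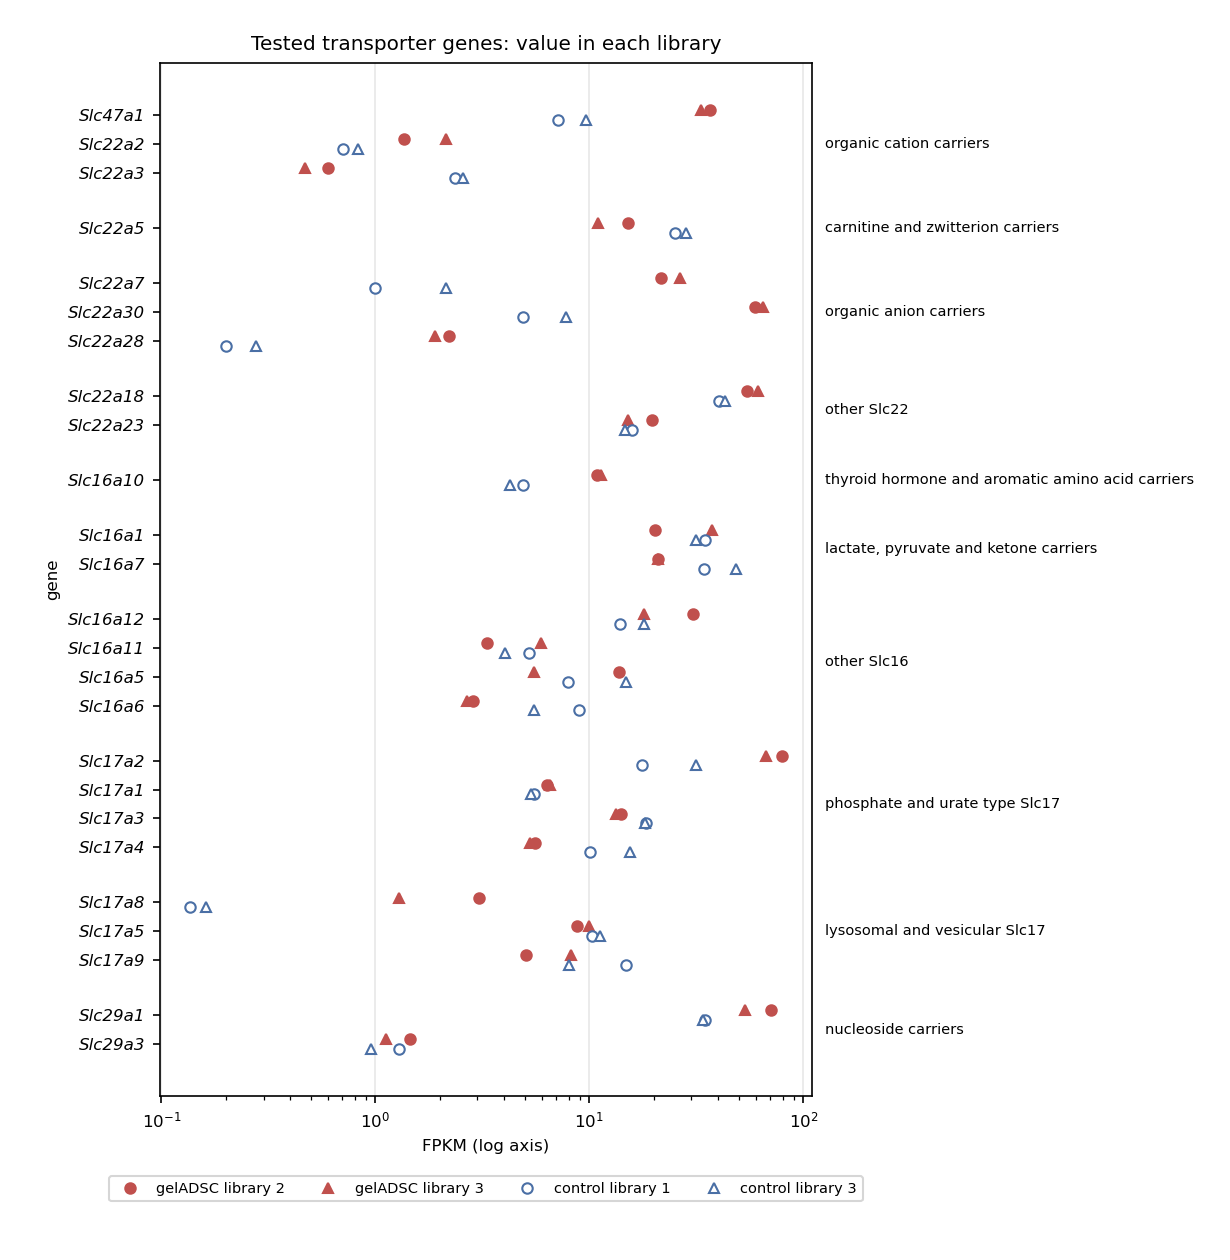
Values of 25 tested transporter genes in each library, in FPKM on a log axis, grouped by what the carriers move. Filled red symbols are gelADSC libraries and open blue symbols control libraries. The gaps between colours are widest for Slc22a7, Slc22a30, Slc22a28 and Slc17a8, while Slc22a23, Slc16a1, Slc16a5 and Slc16a11 are among those that overlap.

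Of 14 members grouped as organic anion carriers, among them the pseudogene Slc22a13b-ps, 3 were high enough to be tested. All 3 were called higher in gelADSC, where 6.92% of all tested genes were higher. Slc22a28 passed the filter through its gelADSC values alone, so this count is a description. Slc22a7 (Oat2), an uptake carrier of organic anions, read 21.6 and 26.6 FPKM in gelADSC libraries 2 and 3 and 1.00 and 2.15 FPKM in control libraries 1 and 3. The gelADSC libraries were both far above the controls, and the mean was 15.3-fold higher. Its log2 change was 3.32 (SE 0.26, limma adjusted p = 0.000156). Slc22a30, a rodent relative of the organic anion carriers, read 59.4 and 64.9 FPKM in gelADSC and 4.87 and 7.74 FPKM in control libraries. The groups were again well apart, the mean was 9.85-fold higher and the log2 change was 3.14 (SE 0.23, limma adjusted p = 0.000119). Both genes were called under each of the 9 alternative ways of processing, with adjusted p at most 0.0150 for Slc22a7 and 0.0132 for Slc22a30. By mean level Slc22a30 ranked 3 among the 58 members in gelADSC and 18 in control livers, and Slc22a7 ranked 10 in gelADSC and 23 in control livers.

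Slc22a28, a close copy of Slc22a30, read 2.21 and 1.91 FPKM in gelADSC and 0.2003 and 0.276 FPKM in control libraries. These values stand for roughly 108 and 77 reads in gelADSC and 8 and 10 reads in control libraries. Its log2 change was 1.30 (SE 0.23, limma adjusted p = 0.00531). The call was lost without control library 1, where the log2 change was 1.26, and was kept under the other alternatives. Of the 50-base stretches in its transcripts, 53.9% also occur in another gene, most often in Slc22a30, while 34.2% of those in Slc22a30 are shared. How reads that match several genes were counted is not given in the sources used here, so the split of reads between these copies is uncertain.

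In the GRCm38.p6 assembly of RefSeq, Slc22a28 and Slc22a30 lie in a row of 8 members on chromosome 19, in the order Slc22a19, Slc22a26, Slc22a27, Slc22a28, Slc22a29, Slc22a30, Slc22a8 and Slc22a6, with no other protein-coding gene between them in that annotation. Slc22a26 read 0.613 and 0.322 FPKM in gelADSC and 0.05003 and 0 FPKM in control libraries, and Slc22a27 read 0.819 and 0.300 FPKM in gelADSC and 0.117 and 0.180 FPKM in control libraries. Both lay above the controls but were too low to be tested. Slc22a29 overlapped between the groups, with 0.278 and 0.0225 FPKM in gelADSC and 0.0227 and 0.125 FPKM in control libraries. Slc22a8 (Oat3) gave roughly 1 read in control library 1 and was listed at 0 in the others, and Slc22a6 (Oat1) and Slc22a19 (Oat5), carriers known from the kidney, were listed at 0 in all 4. The row therefore held an abundant gene beside genes with hardly a read.

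The promoters of Slc22a30 and Slc22a28 were nearly the same. The 250 bases before each start site aligned over 244 columns with 6 differences, an identity of 97.5%. The neighbour Slc22a29 aligned with Slc22a30 over 227 columns with 54 differences, an identity of 76.2%. Members further along the row aligned with Slc22a30 less closely, for example at 63.6% over 269 columns for Slc22a19 and 61.2% over 250 columns for Slc22a26. The part of promoter sequence in the values of these genes was not tested, and the split of reads between Slc22a28 and Slc22a30 is uncertain. The sequences are printed 5′ to 3′ from RefSeq, build GRCm38.p6, and all lie on the minus strand. Capitals in Slc22a30 mark the bases that differ from Slc22a28, and capitals in Slc22a28 and Slc22a29 mark those that differ from Slc22a30 or face a gap in it. Bases outside the aligned stretch were not compared and stay in lower case, namely the last 6 of Slc22a30, the first 6 of Slc22a28 and the first 42 of Slc22a29.
Slc22a30, chr19:8405106-8405355: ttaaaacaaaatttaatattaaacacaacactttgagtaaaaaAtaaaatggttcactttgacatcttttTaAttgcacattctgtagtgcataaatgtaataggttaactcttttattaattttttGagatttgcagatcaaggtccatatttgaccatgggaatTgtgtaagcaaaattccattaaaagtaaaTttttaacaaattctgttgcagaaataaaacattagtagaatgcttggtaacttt
Slc22a28, chr19:8131983-8132232: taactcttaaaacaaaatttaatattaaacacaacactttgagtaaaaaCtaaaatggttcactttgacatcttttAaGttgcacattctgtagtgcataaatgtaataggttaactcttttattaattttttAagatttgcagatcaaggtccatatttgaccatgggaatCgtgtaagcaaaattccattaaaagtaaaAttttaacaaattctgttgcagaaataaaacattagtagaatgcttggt
Slc22a29, chr19:8218901-8219150: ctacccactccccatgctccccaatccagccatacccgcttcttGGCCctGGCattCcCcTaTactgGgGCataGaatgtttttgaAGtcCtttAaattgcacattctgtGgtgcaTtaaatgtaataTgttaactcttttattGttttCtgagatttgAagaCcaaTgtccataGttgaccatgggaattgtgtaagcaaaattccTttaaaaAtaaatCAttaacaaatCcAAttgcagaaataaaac

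Among organic cation carriers, the exporter Slc47a1 (Mate1) was higher and Slc22a3 (Oct3) was lower in gelADSC. Slc47a1 read 36.7 and 33.4 FPKM in gelADSC and 7.14 and 9.62 FPKM in control libraries, a 4.18-fold higher mean. Both gelADSC libraries lay well above both controls. Its log2 change was 1.95 (SE 0.21, limma adjusted p = 0.000622), and it was called under all 9 alternatives. Slc47a2 gave roughly 1 read in control library 1 and was listed at 0 in the other libraries.

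Slc22a3, a low-level cation carrier that lies next to Slc22a2 on chromosome 17, read 0.597 and 0.468 FPKM in gelADSC and 2.35 and 2.56 FPKM in control libraries, roughly 66 and 43 reads against 212 and 209. Its mean was 4.61-fold lower and its log2 change -1.17 (SE 0.22, limma adjusted p = 0.00772). Slc22a3 passed the filter through its control values alone, so its call is a description. The call was lost without control library 1, where the log2 change was -1.22. An exon of Slc22a3 overlaps Plg, the plasminogen gene on the opposite strand, by 420 bases in GENCODE M21. Plg read 1089 and 1036 FPKM in gelADSC and 307 and 469 FPKM in control libraries, so it lay in the other direction. Whether the counting used strand is not given in the sources used here. Slc22a2 (Oct2), its neighbour, read 1.36 and 2.14 FPKM in gelADSC and 0.704 and 0.827 FPKM in control libraries. It did not pass the test (log2 change 0.63, 95% interval 0.07 to 1.18, limma adjusted p = 0.0911), although the groups did not overlap. It passed without gelADSC library 2 (0.0215, in a range of 0.0215 to 0.279). Slc29a4, a carrier of monoamines, stood at no more than 0.0540 FPKM, roughly 3 reads.

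**Figure D2:**
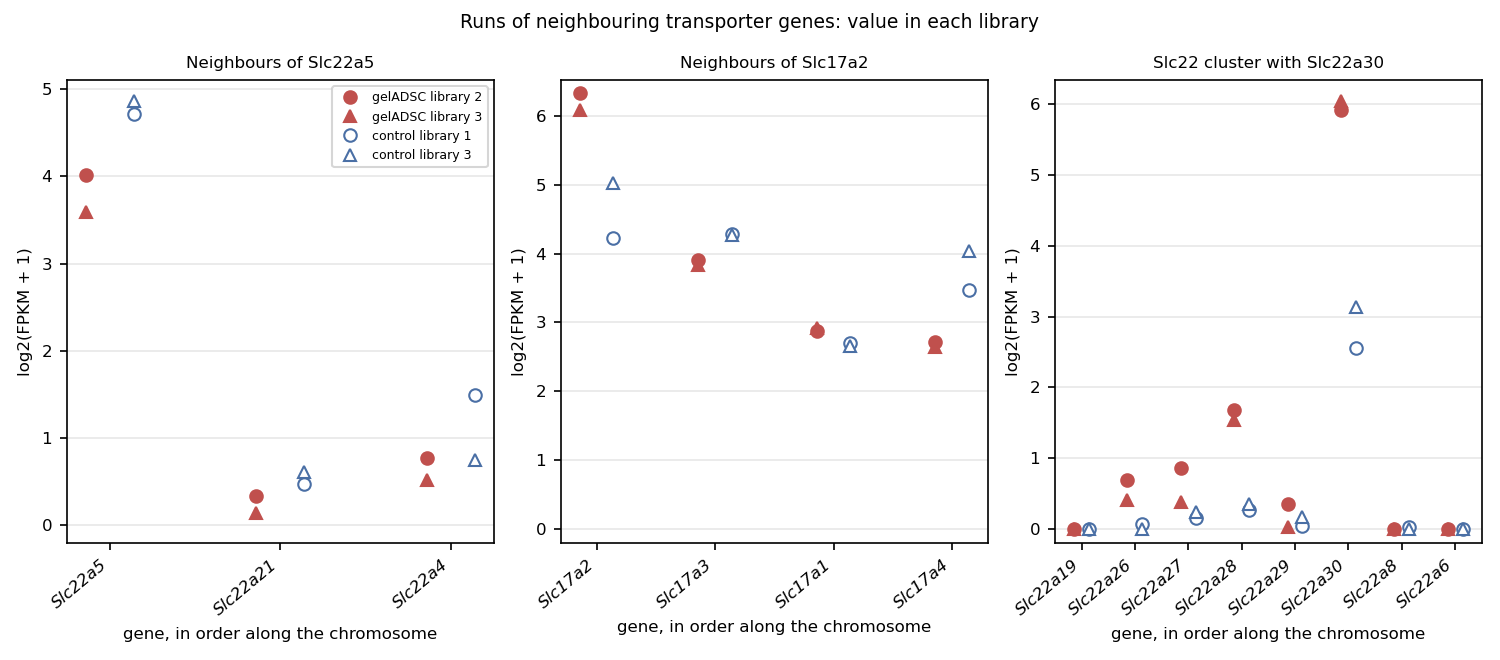
Values of 3 rows of neighbouring transporter genes as log2(FPKM + 1), in their order along the chromosome, with gelADSC libraries in filled red left of control libraries in open blue. In the row of the Slc17 genes, gelADSC lies above control for some neighbours and below for others. In the Slc22a30 cluster, Slc22a30 stands far above its neighbours in both groups.

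Carnitine carriers were low or lower. Slc22a5 (Octn2), which brings carnitine into cells, read 15.2 and 10.997 FPKM in gelADSC and 25.2 and 28.2 FPKM in control libraries. The mean was 2.04-fold lower and the groups did not overlap. Its log2 change was -0.99 (SE 0.21, limma adjusted p = 0.0132), or -0.74 relative to all genes. The call was lost under median ratio scaling (adjusted p = 0.110), quantile normalization (0.114) and no filter (0.0548), and without control library 1 (0.0941), control library 3 (0.0657) or gelADSC library 3 (0.0760), in a range of 0.00274 to 0.114. Of the 50-base stretches in its transcripts 26.3% are shared with other genes, most often its neighbour Slc22a21. Slc22a21 (Octn3) read 0.268 and 0.108 FPKM in gelADSC and 0.393 and 0.529 FPKM in control libraries. Slc22a4 (Octn1), which carries ergothioneine, overlapped between the groups at 0.707 and 0.439 FPKM in gelADSC and 1.82 and 0.684 FPKM in control libraries. Both were untested, and Slc22a16 was listed at 0 in all 4 libraries.

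Of 9 tested genes that make or use carnitine, 3 were higher and 0 lower by limma, beside 6.92% higher and 17.5% lower among all tested genes. In this list 3 higher and 3 lower genes had an unadjusted p under 0.05. Bbox1, the last enzyme of carnitine synthesis, read 80.2 and 76.1 FPKM in gelADSC and 19.4 and 27.95 FPKM in control libraries (log2 change 1.70, limma adjusted p = 0.00141). Bbox1 was thus called higher and the uptake carrier Slc22a5 lower in the same livers. Aldh9a1, another enzyme of carnitine synthesis, was not called and lay below both controls. It read 81.6 and 81.2 FPKM in gelADSC and 114.9 and 119.4 FPKM in control libraries (log2 change -0.52, limma adjusted p = 0.0673). Tmlhe, also of this synthesis, was listed at 0 in every library. The call of Bbox1 was kept under all 9 alternatives, while that of Slc22a5 was lost under several, median ratio scaling and quantile normalization among them. Shmt1 and Crot were higher with log2 changes of 1.67 and 1.21, and the call of Crot was lost without control library 1 (adjusted p = 0.123) and with no filter (0.0597). Cpt1a, which links fatty acids to carnitine, read 133 and 128 FPKM in gelADSC and 139.6 and 145 FPKM in control libraries (limma adjusted p = 0.646). The median of this list was -0.12, where that of all tested genes was -0.25.

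Slc16 members went in both directions. Slc16a10 (Tat1), which carries aromatic amino acids and thyroid hormone, was higher in gelADSC. It read 10.8 and 11.4 FPKM in gelADSC and 4.88 and 4.26 FPKM in control libraries, a 2.43-fold higher mean (log2 change 1.12, SE 0.20, limma adjusted p = 0.00570). The libraries of a group lay close together and apart from the other group, and the call was kept under all 9 alternatives. Of 7 tested genes of thyroid hormone action, Dio1, the deiodinase that activates thyroxine, was called higher and Me1, malic enzyme, lower, where 6.92% of all tested genes were higher and 17.5% lower. Dio1 read 27.5 and 46.6 FPKM in gelADSC and 7.36 and 8.13 FPKM in control libraries (log2 change 2.08, limma adjusted p = 0.00127). The call of Dio1 was lost without control library 1. Me1 had a log2 change of -0.83, and its call was lost under 5 alternatives, among them without control library 1 (adjusted p = 0.159) and without gelADSC library 2 (0.142). The receptor Thrb read 4.86 and 5.28 FPKM in gelADSC and 4.64 and 3.43 FPKM in control libraries (limma adjusted p = 0.368). The list's median was 0.28, and without control library 1, 0 of its genes were called.

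Of the lactate and ketone body carriers, Slc16a7 (Mct2) was lower and Slc16a1 (Mct1) was not called. Slc16a7 read 21.0 and 20.8 FPKM in gelADSC and 34.2 and 48.4 FPKM in control libraries. The gelADSC libraries were nearly equal and lay below both controls, with a log2 change of -0.93 (SE 0.22, limma adjusted p = 0.0177), or -0.68 relative to all genes. The call was lost under median ratio scaling (adjusted p = 0.151), quantile normalization (0.144), no filter (0.0624) and without control library 3 (0.0596), in a range of 0.0162 to 0.151. Slc16a1 read 20.3 and 37.4 FPKM in gelADSC and 34.6 and 31.6 FPKM in control libraries, so the gelADSC libraries lay on either side of the controls (log2 change -0.25, 95% interval -0.88 to 0.38, limma adjusted p = 0.526). Bsg, the partner that brings Slc16a1 to the membrane, read 263 and 277 FPKM in gelADSC and 209 and 208 FPKM in control libraries (limma adjusted p = 0.174). Slc16a3 (Mct4) was not tested, with 1.11 and 0.366 FPKM in gelADSC and 1.051 and 1.0501 FPKM in control libraries, and Slc16a8 (Mct3) gave at most 4 reads in a library.

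Among the remaining Slc16 genes, Slc16a6 was called lower. This carrier, tied to ketone body export from the liver in zebrafish, read 2.85 and 2.68 FPKM in gelADSC and 8.98 and 5.53 FPKM in control libraries (log2 change -1.10, SE 0.25, limma adjusted p = 0.0164). The groups did not overlap, and the control libraries were further from each other than the gelADSC libraries. Its adjusted p was 0.112 without control library 1 and 0.0811 with no filter, in a range of 0.0118 to 0.112. An exon of Slc16a6 overlaps Amz2 on the opposite strand by 1052 bases, and Arsg also overlaps it. Amz2 read 4.18 and 5.28 FPKM in gelADSC and 9.08 and 6.47 FPKM in control libraries, and Arsg read 4.20 and 6.87 FPKM in gelADSC and 16.5 and 10.6 FPKM in control libraries, so both lay in the same direction as Slc16a6. The part of these overlaps in its values was not tested.

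Slc16a12, a creatine carrier, read 30.5 and 18.0 FPKM in gelADSC and 13.9 and 17.9 FPKM in control libraries (log2 change 0.54, limma adjusted p = 0.168). It was called higher without gelADSC library 3 (0.0342, in a range of 0.0342 to 0.799). Slc16a5 overlapped between the groups, with 13.8 and 5.51 FPKM in gelADSC and 7.94 and 14.9 FPKM in control libraries, as did Slc16a11 with 3.34 and 5.94 FPKM in gelADSC and 5.23 and 4.03 FPKM in control libraries. Their signs changed between processing alternatives. Untested were Slc16a9 (0.656 and 0.710 FPKM in gelADSC, 0.3802 and 0.496 FPKM in control libraries), Slc16a4 (0.281 and 0.386 FPKM, against 0.0688 and 0.0758 FPKM) and Slc16a13 (0.405 and 0.393 FPKM, against 1.29 and 0.634 FPKM). Slc16a14 gave roughly 1 read in all.

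In the list of genes around monocarboxylates, 1 of 16 tested was higher and 4 lower, near the 6.92% higher and 17.5% lower of all tested genes. The median was -0.04. The list holds carriers beside enzymes, and Mpc1, a subunit of the mitochondrial pyruvate carrier, was among the lower. Pdk4, a kinase that switches off pyruvate dehydrogenase, read 14.3 and 8.64 FPKM in gelADSC and 53.6 and 58.0 FPKM in control libraries (log2 change -2.22, limma adjusted p = 0.000740), and its call was kept under all 9 alternatives. Its relative Pdk2 was higher with a log2 change of 1.04, a call lost without control library 1 (adjusted p = 0.0818). Pdha1 and Dlat, subunits of pyruvate dehydrogenase, were lower with log2 changes of -1.04 and -0.66. The call of Pdha1 was lost under 5 of the 9 alternatives, including the omission of control library 1, control library 3 or gelADSC library 2, with adjusted p up to 0.0971. That of Dlat was lost under 7, including the omission of any of the 4 libraries, with adjusted p up to 0.225. With median ratio scaling, with quantile normalization, or without control library 1, control library 3 or gelADSC library 2, 1 gene of the list was lower, and without control library 1, 0 were higher.

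**Figure D3:**
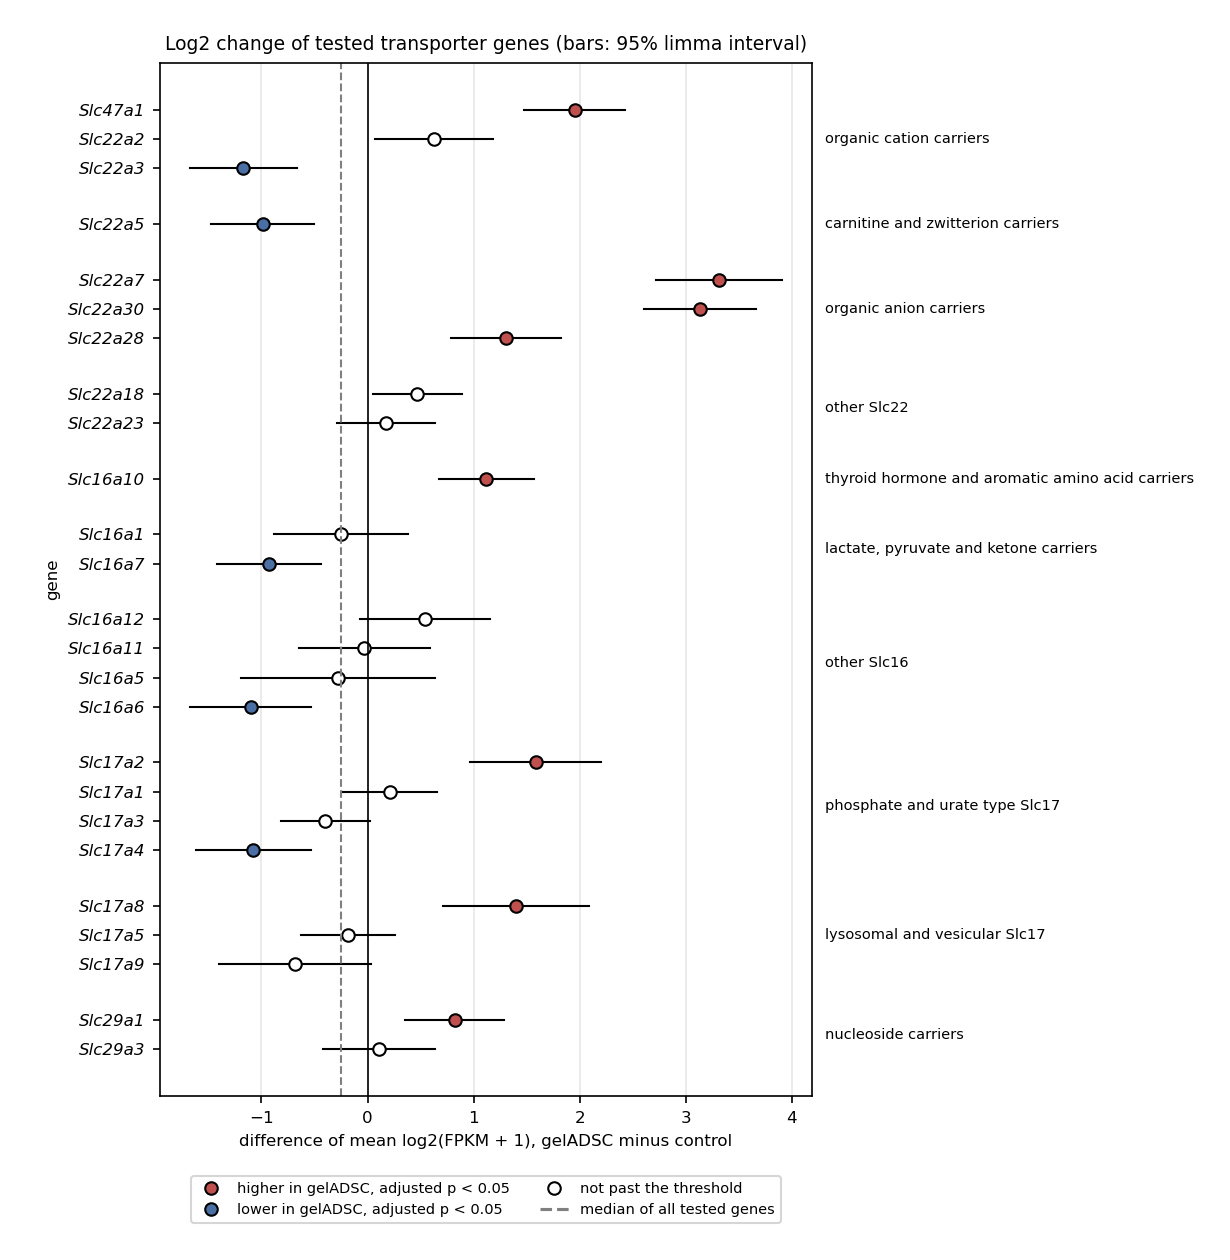
Log2 change of 25 tested transporter genes, gelADSC minus control, with its 95% limma interval, grouped by what the carriers move. Red points passed the test as higher, blue points as lower and open points did not pass. The dashed line marks the median of all tested genes at -0.25. The organic anion carriers Slc22a7 at 3.32 and Slc22a30 at 3.14 lie furthest to the right, while Slc22a28, at 1.30, lies left of Slc47a1, Slc17a2 and Slc17a8.

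The Slc17 family has a row of phosphate and urate carriers on chromosome 13, in the order Slc17a2, Slc17a3, Slc17a1 and Slc17a4. Slc17a2 (Npt3), at the head of the row, read 79.6 and 66.9 FPKM in gelADSC and 17.7 and 31.5 FPKM in control libraries. Both gelADSC libraries lay above the higher control, and the log2 change was 1.59 (SE 0.27, limma adjusted p = 0.00495). The call of Slc17a2 was lost on leaving out control library 1, where the log2 change was 1.19. Slc17a4, at the other end, read 5.56 and 5.26 FPKM in gelADSC and 10.1 and 15.5 FPKM in control libraries (log2 change -1.08, SE 0.24, limma adjusted p = 0.0144). It too had groups that did not overlap, but its call was lost under median ratio scaling (adjusted p = 0.112), quantile normalization (0.107), no filter (0.0685) and without control library 3 (0.0553), in a range of 0.0112 to 0.112.

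The members between them were not called. Slc17a3 (Npt4) read 14.04 and 13.3 FPKM in gelADSC and 18.4 and 18.3 FPKM in control libraries (log2 change -0.40, 95% interval -0.82 to 0.02, limma adjusted p = 0.144). Slc17a1 (Npt1) read 6.34 and 6.55 FPKM in gelADSC and 5.53 and 5.32 FPKM in control libraries (log2 change 0.21, 95% interval -0.23 to 0.66, limma adjusted p = 0.445). In both genes the groups did not overlap, in opposite directions and by small amounts. Summed over the row, the level was 105.6 and 92.1 FPKM in gelADSC and 51.7 and 70.6 FPKM in control libraries, and Slc17a2 was the largest part of it in both gelADSC libraries.

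Of the lysosomal and vesicular Slc17 carriers, Slc17a8 (Vglut3), which loads glutamate into vesicles, was called higher. It read 3.05 and 1.28 FPKM in gelADSC and 0.135 and 0.161 FPKM in control libraries, roughly 351 and 122 reads against 13 and 14. The level was low in both groups, the gelADSC libraries differed widely from each other, and both lay above the controls (log2 change 1.40, SE 0.30, limma adjusted p = 0.0130). Slc17a8 passed the filter through its gelADSC values alone, so its call is a description. The call was lost with median ratio scaling (where the adjusted p of 0.05 is rounded down), quantile normalization (0.0534) and no filter (0.0597). It was also lost without control library 1 or control library 3, with log2 changes of 1.39 and 1.42. Leaving out gelADSC library 2 gave a log2 change of 0.99 and leaving out gelADSC library 3 gave 1.82. Slc17a9 (Vnut), which loads ATP, read 5.04 and 8.22 FPKM in gelADSC and 14.8 and 8.07 FPKM in control libraries (limma adjusted p = 0.138). It was called lower without gelADSC library 3 (0.0338, in a range of 0.0338 to 0.617). Slc17a5 (sialin), the lysosomal sialic acid exporter, read 8.74 and 9.92 FPKM in gelADSC and 10.2 and 11.2 FPKM in control libraries (log2 change -0.19, 95% interval -0.63 to 0.26, limma adjusted p = 0.507). The neuronal glutamate carriers Slc17a6 and Slc17a7 gave at most 4 reads in a library.

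Among nucleoside carriers, Slc29a1 (Ent1), the common equilibrative carrier, was higher. It read 70.8 and 53.4 FPKM in gelADSC and 34.8 and 33.9 FPKM in control libraries, a 1.81-fold higher mean (log2 change 0.82, SE 0.20, limma adjusted p = 0.0228). The groups did not overlap, and the control libraries were nearly equal. Its call was lost without control library 1 (adjusted p = 0.129), control library 3 (0.0776) or gelADSC library 2 (0.174) and with no filter (0.0626), in a range of 0.00822 to 0.174. Slc29a3 (Ent3), the lysosomal carrier, read 1.447 and 1.12 FPKM in gelADSC and 1.29 and 0.949 FPKM in control libraries (log2 change 0.11, 95% interval -0.42 to 0.64, limma adjusted p = 0.762). Slc29a2 (Ent2) was untested at 0.282 and 0.321 FPKM in gelADSC and 0.487 and 0.3796 FPKM in control libraries. The concentrative carriers were all under the filter. Slc28a2 (Cnt2) read 0.493 and 0.343 FPKM in gelADSC and 0.296 and 0.439 FPKM in control libraries, and Slc28a1 (Cnt1) and Slc28a3 (Cnt3) gave at most 10 reads in a library.

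Genes around nucleosides and bases, mostly enzymes but also the adenosine receptor Adora1, went both ways. Of 25 tested, 7 were higher, Adora1 included, and 8 lower, where 6.92% of all tested genes were higher and 17.5% lower. Their median was -0.05. With median ratio scaling or quantile normalization 5 were lower, and without control library 1, 3 were higher and 1 lower. Tk1, thymidine kinase, and Dpys, a pyrimidine-degrading enzyme, were higher with log2 changes of 3.35 and 2.95, under all 9 alternatives. Upp2, a liver uridine phosphorylase, read 30.1 and 8.25 FPKM in gelADSC and 0.124 and 0.258 FPKM in control libraries (limma adjusted p = 0.00126, and 0.0655 without control library 1, the highest of its range). Cda, cytidine deaminase, was lower, with 14.1 and 15.3 FPKM in gelADSC and 51.5 and 32.8 FPKM in control libraries (log2 change -1.43, limma adjusted p = 0.00463). Ada and Nt5e, which remove and make adenosine, were lower with log2 changes of -1.34 and -1.30, and without control library 1 the adjusted p was 0.0742 for Ada and 0.173 for Nt5e.

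The remaining Slc22 genes were not called or not tested. Slc22a18, an orphan carrier from an imprinted region, read 54.8 and 61.6 FPKM in gelADSC and 40.5 and 42.8 FPKM in control libraries. The groups did not overlap, but it was not called (log2 change 0.47, 95% interval 0.05 to 0.89, limma adjusted p = 0.0931). It was called higher with median ratio scaling (0.0413) and quantile normalization (0.0380), in a range of 0.0380 to 0.403. Slc22a23 read 19.5 and 15.2 FPKM in gelADSC and 15.8 and 14.6 FPKM in control libraries (log2 change 0.17, 95% interval -0.29 to 0.64, limma adjusted p = 0.552). Slc22a15 stood just under the filter with 1.04 and 1.14 FPKM in gelADSC and 0.945 and 0.732 FPKM in control libraries, and Slc22a17 read 0.464 and 0.563 FPKM in gelADSC and 0.394 and 0.289 FPKM in control libraries. Slc22a13b-ps, a pseudogene, read 0.225 and 0.273 FPKM in gelADSC and 0.552 and 0.418 FPKM in control libraries, while its parent Slc22a13 was listed at 0 in all 4. Values of such copies are uncertain, since 49.9% of the 50-base stretches of the pseudogene also occur in Slc22a13. The urate carrier Slc22a12 and Slc22a14 gave at most 2 reads in a library, and Slc22a20 and Slc22a22 were listed at 0. A value of 0 need not mean that a gene is off, as the blood haemoglobin genes Hba-a1, Hba-a2, Hbb-b1 and Hbb-bt were also listed at 0 in every library.

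Summed over all 58 members, the level was 728 and 739.6 FPKM in gelADSC and 434 and 479.8 FPKM in control libraries. Slc22 members made up 349 and 398 FPKM of the sum in gelADSC and 187 and 201 FPKM in control libraries. Slc16 members summed to 147 and 141 FPKM in gelADSC and 125 and 144 FPKM in control libraries, so this family overlapped in total while its members moved in both directions. The order of levels also differed, and Slc17a2 ranked 2 in gelADSC and 7 in control livers, while Slc16a7 ranked 11 in gelADSC and 3 in control livers. Slc22a18 and Slc16a7 did not differ beyond their spread in control livers, at 41.7 ± 1.68 and 41.3 ± 10.1 FPKM (SD, n = 2).

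A list of hepatic Slco uptake carriers and ABC family genes, with the scaffold gene Pdzk1, held 5 higher and 4 lower among 17 tested genes. Among the higher was Abcc9, a channel subunit rather than an exporter. Of all tested genes, 6.92% were higher and 17.5% lower, and the list had a median of -0.19. Slco1b2, an uptake carrier of bile acids and drugs, read 319 and 222 FPKM in gelADSC and 24.6 and 57.3 FPKM in control libraries (log2 change 2.79, limma adjusted p = 0.00153). Slco1a1 and Abcc6 were higher with log2 changes of 2.30 and 1.70, the call of Slco1a1 being lost without control library 1 (adjusted p = 0.0789), control library 3 (0.0591) and with no filter (0.0560). Abcb1a, a drug exporter, read 1.56 and 1.33 FPKM in gelADSC and 12.6 and 10.7 FPKM in control libraries (log2 change -2.37, limma adjusted p = 0.000256). Abcb4, the phospholipid exporter of bile, and Abcc3, a blood-side exporter, were lower with log2 changes of -1.78 and -1.31, and the adjusted p of Abcc3 was 0.0558 without control library 1. Without control library 1, 2 genes of this list were higher and 2 lower, and without control library 3, 3 were higher and 3 lower.

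Of 12 transcription factors known for the control of hepatic carriers, 3 were higher and 1 lower, where 6.92% of all tested genes were higher and 17.5% lower, 24.4% in all. Their median was 0.19. Cebpa, a hepatocyte factor, read 72.7 and 78.0 FPKM in gelADSC and 26.8 and 29.2 FPKM in control libraries (log2 change 1.40, limma adjusted p = 0.00153) and was called under all 9 alternatives. Onecut1 and Nr1h4, the bile acid receptor, were higher with log2 changes of 2.57 and 1.28, and without control library 1 the adjusted p was 0.110 for Onecut1 and 0.124 for Nr1h4. Nr1i2, the xenobiotic receptor PXR, was lower with a log2 change of -1.06, a call lost under 5 alternatives, among them without control library 1 (adjusted p = 0.0847) and control library 3 (0.0812), with adjusted p up to 0.143. Without control library 1, 1 factor of the list was higher and 0 were lower. Hnf4a read 157 and 179 FPKM in gelADSC and 168 and 197 FPKM in control libraries (limma adjusted p = 0.686).

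**Figure D4:**
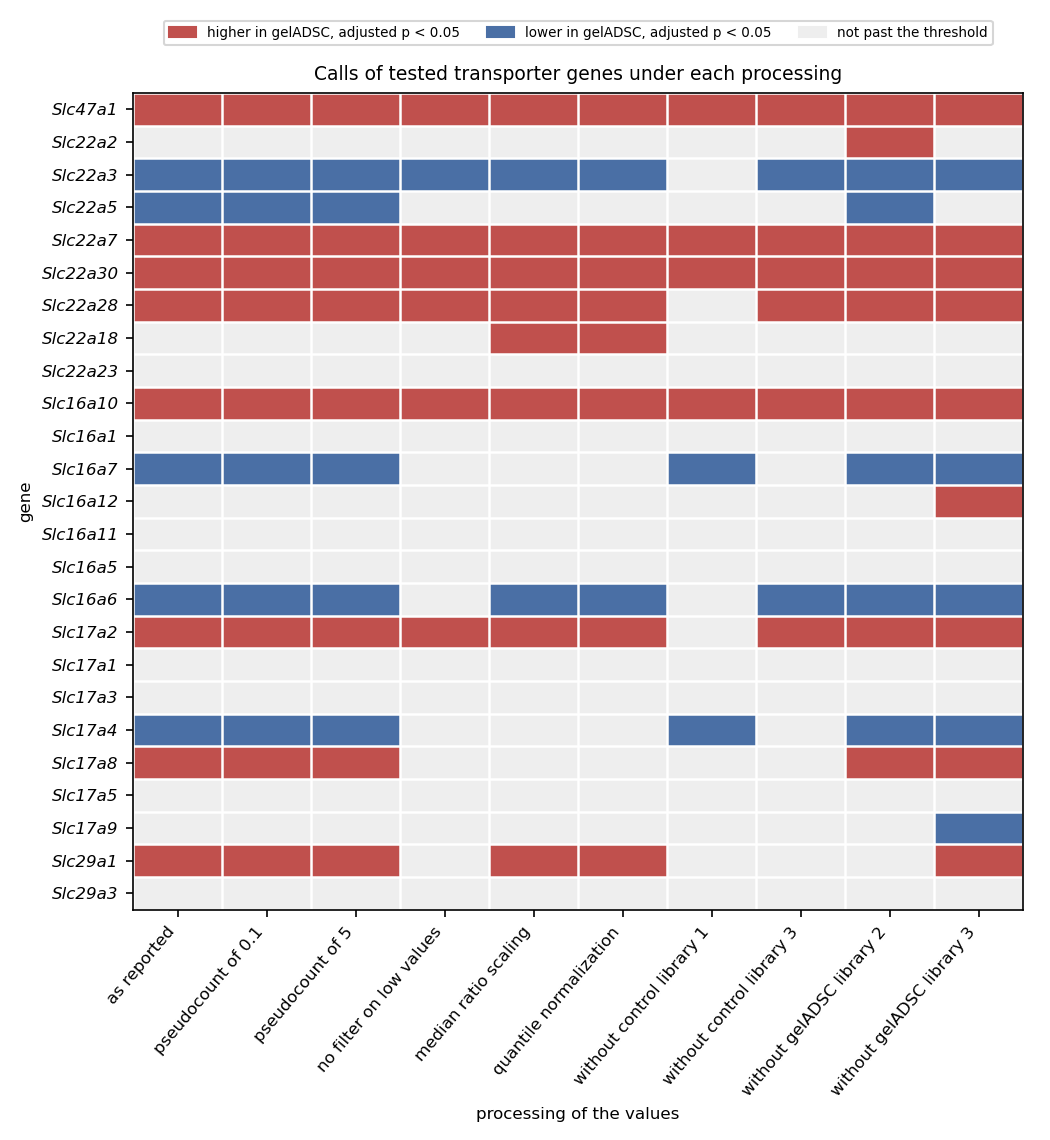
Calls of 25 tested transporter genes as reported and under 9 alternative ways of processing. Red cells passed the test as higher in gelADSC, blue cells as lower, and grey cells did not pass. Slc47a1, Slc22a7, Slc22a30 and Slc16a10 are red in every column, and no called gene shown changed its direction.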

How the data were processed

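The deposited table holds values per gene symbol for 4 libraries of mouse liver RNA, made with the TruSeq Stranded mRNA kit per the labels' protocols. Its header names no unit. The values were taken as FPKM, since the authors used Cufflinks 2.2.1, after Trimmomatic 0.38 and TopHat2 2.1.1, per the submitters' processing notes. Those notes name a human build, which cannot be the source of mouse gene symbols, so the build is unknown here. The gelADSC columns bear the numbers 2 and 3 and the control columns 1 and 3, whereas titles count 1 and 2 in each group. Libraries carry the column numbers, which tie no column to a single title.

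Genes averaging 1 FPKM or more were fitted with limma 3.58.1 in R 4.3.3 on log2(FPKM + 1) with a mean-variance trend, 2 libraries a group and 2 residual degrees of freedom, two-sided. P-values were adjusted by Benjamini and Hochberg over all 11070 tested genes, with a threshold of 0.05. The procedure was tested on simulated data. A fold is a ratio of group means of FPKM. The alternatives were a pseudocount of 0.1 or 5, no filter, median ratio scaling, quantile normalization and leaving out each library in turn. After leaving out a library, the lone one is assumed to vary like the other group.

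Read numbers were estimated from steps between FPKM values of 177 genes with a single transcript. Shared 50-base stretches and exon overlaps come from GENCODE M21.

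Every called member is named, except 2 tested members that are not reported here, and up to 3 called genes in each direction of 6 pathway lists. Bsg, Mpc1, Cpt1a, Aldh9a1, Tmlhe, Adora1, Abcc9, Pdzk1, Thrb, Hnf4a, Mki67 and the genes overlapping members were added after their values were seen. The members and lists were chosen with earlier results of these data known.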

Additional observations from a re-analysis of the deposited data

How the results depend on the processing

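A pseudocount of 0.1 or 5 left the counts at 10 members higher and 5 lower. With no filter 8 were higher and 1 lower, of 52 members tested. Median ratio scaling gave 10 higher and 2 lower, as did quantile normalization. Leaving out each library in turn gave 5 to 11 members higher and 2 to 5 lower, with 5 higher without control library 1 and 2 lower without control library 1 or without control library 3. The causes were not tested. All tested genes gave 766 higher and 1936 lower calls as reported, 952 and 948 after median ratio scaling, 931 and 1000 after quantile normalization, 525 and 730 with no filter, and 279 and 326 without control library 1.

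A change of sign was seen for members that were not called. Slc16a1 had a log2 change of 0.031 after median ratio scaling, 0.066 after quantile normalization and -0.68 to 0.17 on leaving out each library. Slc16a11 had 0.21 after median ratio scaling, 0.15 after quantile normalization and -0.37 to 0.31 on leaving out each library. Slc16a5 ranged over -0.87 to 0.31 on leaving out each library. Slc17a5 had 0.080 after median ratio scaling and 0.093 after quantile normalization. Slc29a3 ranged over -0.010 to 0.22 on leaving out each library.

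No paired analysis was possible because the gelADSC columns bear the numbers 2 and 3 and the control columns 1 and 3, so the groups share fewer than 2 numbers. Depth limits the untested members, where 1 read moves a value by a few hundredths of an FPKM.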
